A study of Mus musculus with 4 samples.

Results

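The 10 marker genes described here are those of Kupffer cells and macrophages, and the question is how much RNA of these cells whole liver holds when the knockout is in another cell type, the hepatocyte. Gene identifiers of the count files were matched to symbols, and Clec4f, Vsig4, Timd4, Cd5l, Marco, Adgre1, Csf1r, Cd68, C1qa and C1qb were taken by name. They are 10 of the 48709 genes counted, and all 10 were among the 13699 genes kept by the filter on low counts. Liver RNA of untreated adult C57BL/6 mice was sequenced as 4 mRNA libraries. The 2 WT libraries came from littermates with both Ddi2 alleles floxed and no Cre, and the 2 libraries labelled DDI2-KO (genotype DDI2-/-) from mice with the same floxed alleles and Cre under the albumin promoter. That promoter is active in hepatocytes, so the macrophages in these livers are not the cells targeted by the deletion.

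Kupffer cells are the resident macrophages of the liver. They sit in the sinusoids, the small vessels between the hepatocytes, and take up bacteria, debris and worn red blood cells from the blood. They depend on signalling through the CSF1 receptor and on cues from their neighbours, hepatocytes, endothelial and stellate cells, and their macrophage programme is set up by the transcription factor PU.1. In RNA from a whole piece of liver, fewer cells of a type and less RNA per cell cannot be told apart.

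Reads on genes numbered 22501208 to 34109018 per library, so that 3 reads, taken as the smallest detectable level, correspond to 0.0892 to 0.131 CPM. CPM, the usual read counts relative to library size, were taken after scaling by edgeR's TMM method. Mitochondrial transcripts took 9.91 to 10.5% of the reads in WT and 5.27 to 6.34% in DDI2-KO, and albumin, the main hepatocyte secreted protein, took 12.4 to 15.1% in all 4 libraries. With mitochondrial genes and the hepatocyte marker genes left out of the library sizes, the median log2 fold change of the markers was 0.12, as it was with them. The reads on Ddi2, the targeted gene, numbered 4749 and 3812 in WT, against 4068 and 3777 in DDI2-KO, and after scaling both DDI2-KO libraries (157 and 164 CPM) lay above WT (141 and 123 CPM; log2 fold change 0.28, adjusted p = 0.349 in edgeR). Exon 2, which the LoxP sites flank, has 130 of the 9553 bases of the longest Ddi2 transcript, or 1.36%, so the whole-gene count does not check the deletion. Exons of Rsc1a1, on the same strand, overlap 18.3% of the Ddi2 exon bases, so a part of this count is uncertain. Each library is one of 2 biological replicates, and p-values measure the spread between these libraries.

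The stretches just before the start sites of 4 of the markers are shown because the markers differ in direction: C1qb and Cd68 had lower mean levels in DDI2-KO than in WT, and Clec4f and Cd5l had higher ones. Each is the 250 bases before the RefSeq start on GRCm38.p6, read 5′ to 3′ on the gene's strand. They lie at chr4:136886201-136886450 (minus strand) for C1qb, chr11:69666171-69666420 (minus) for Cd68, chr6:83656117-83656366 (minus) for Clec4f and chr3:87357631-87357880 (plus) for Cd5l. Capitals mark matches, on either strand, to GAGGAA, the core of the PU.1 site, or to TGACNNNGC, the core of the antioxidant response element that NRF1 and NRF2 bind.
C1qb: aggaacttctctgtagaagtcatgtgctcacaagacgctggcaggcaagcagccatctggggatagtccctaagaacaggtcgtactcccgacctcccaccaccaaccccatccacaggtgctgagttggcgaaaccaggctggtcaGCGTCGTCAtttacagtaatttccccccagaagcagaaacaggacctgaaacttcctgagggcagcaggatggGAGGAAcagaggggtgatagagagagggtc
Cd68: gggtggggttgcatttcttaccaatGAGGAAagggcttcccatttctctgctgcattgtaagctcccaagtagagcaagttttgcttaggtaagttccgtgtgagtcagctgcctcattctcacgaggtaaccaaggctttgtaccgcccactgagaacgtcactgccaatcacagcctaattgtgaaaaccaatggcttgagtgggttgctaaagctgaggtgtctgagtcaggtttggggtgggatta
Clec4f: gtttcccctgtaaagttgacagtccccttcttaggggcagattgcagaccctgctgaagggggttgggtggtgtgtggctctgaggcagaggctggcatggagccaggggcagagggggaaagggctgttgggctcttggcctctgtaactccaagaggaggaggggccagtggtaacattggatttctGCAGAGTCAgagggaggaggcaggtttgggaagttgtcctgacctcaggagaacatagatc
Cd5l: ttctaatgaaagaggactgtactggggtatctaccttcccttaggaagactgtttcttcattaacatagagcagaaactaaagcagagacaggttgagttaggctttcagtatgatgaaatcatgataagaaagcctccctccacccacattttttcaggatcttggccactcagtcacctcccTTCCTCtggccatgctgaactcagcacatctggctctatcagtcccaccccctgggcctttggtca

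In C1qb the PU.1 core begins 30 bases before the start and the antioxidant element core 103 bases before it, with no overlap. The PU.1 core begins 225 bases before the start in Cd68 and 66 bases before it in Cd5l, and Clec4f holds the antioxidant element core at 61 bases. These positions are relative to the RefSeq start. In GENCODE M21, the annotation used for gene coordinates here, Clec4f reaches to 83656187, so its match lies inside the gene as annotated there. Adgre1 and C1qa had no entry in the RefSeq table. Csf1r was not searched, since marker entries on chromosome 18 were left out, though the count over all promoters kept that chromosome. The other 7 of the 10 markers were searched, the 4 above with Vsig4, Marco and Timd4. Of these 7, 5 held the PU.1 core (C1qb, Cd68, Cd5l, Marco and Vsig4), against 23.3% of 32851 promoters, and 2 the antioxidant element core (C1qb and Clec4f), against 10.2%. Markers with the PU.1 core lay on both sides of WT, C1qb, Cd68 and Marco below it and Cd5l and Vsig4 above. A match is a description of letters and not a binding site.

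None of the 10 markers passed an adjusted p of 0.05 in the quasi-likelihood test of edgeR, with the p-values of all 13699 genes adjusted by the Benjamini-Hochberg method. In these terms 0 were lower in DDI2-KO, where 1.20% of all genes were, and 0 were higher, where 1.33% were. At an unadjusted p under 0.05 in edgeR's test, 3 markers were lower (C1qa, Cd68 and C1qb; 11.5% of all genes) and 1 was higher (Adgre1; 12.0%). The markers were split in direction. Both DDI2-KO libraries lay below both WT libraries for 4 of them, Marco, Cd68, C1qa and C1qb (27.7% of all genes), above both for 3, Vsig4, Cd5l and Adgre1 (28.0%), and the groups overlapped for Clec4f, Timd4 and Csf1r. DESeq2 called 1 marker, Adgre1, higher (adjusted p = 0.0461), where it called 511 of all 13699 genes higher and 429 lower. With limma-voom and limma-trend, 0 markers were called in either direction. Without the filter on low counts, edgeR called Adgre1 higher (adjusted p = 0.0264) and Cd68 lower (adjusted p = 0.0321). In that fit, 792 of 21099 genes were called higher and 752 lower. Without DDI2-KO replicate 1, the log2 fold change of C1qa was -1.18.

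**Figure D1:**
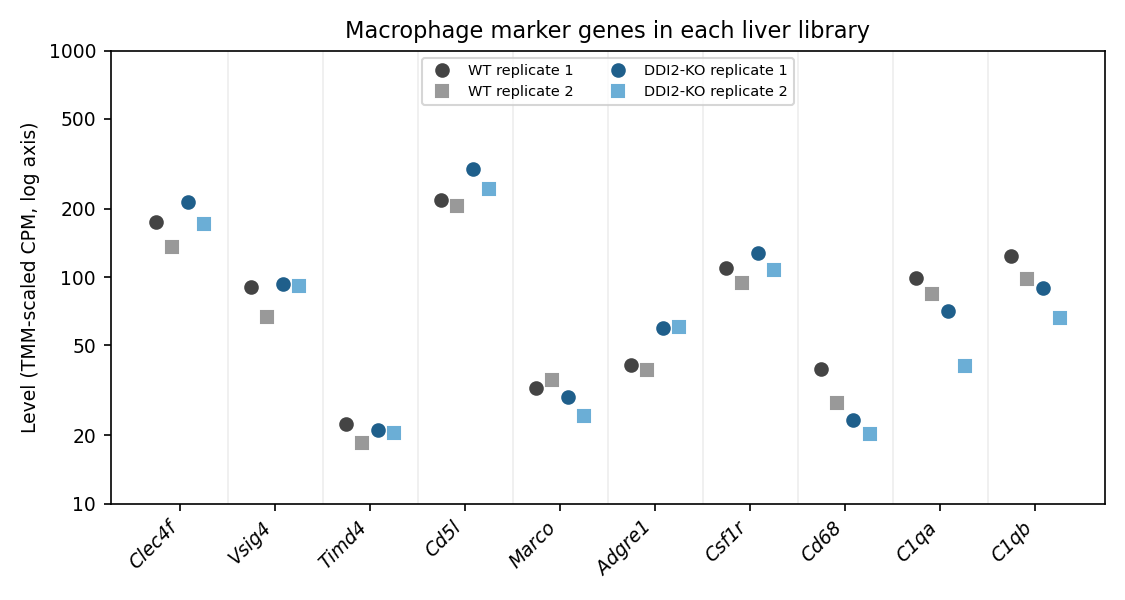
Level of each of the 10 marker genes (vertical axis, TMM-scaled CPM on a log axis) in each liver library, with 1 point per library. The DDI2-KO points stand above the WT points for Vsig4, Cd5l and Adgre1 and below them for Marco, Cd68, C1qa and C1qb, and they overlap for Clec4f, Timd4 and Csf1r.

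Clec4f, Vsig4 and Timd4 are surface receptors by which Kupffer cells are often identified, of which Vsig4 and Timd4 are found on some other resident macrophages as well. Clec4f (ENSMUSG00000014542, chromosome 6 of GRCm38, 83644542 to 83656187, minus strand) encodes a sugar-binding lectin of the Kupffer cell surface. It had 5894 and 4203 reads in WT, against 5566 and 3964 in DDI2-KO, or 175 and 136 CPM against 215 and 172 CPM. DDI2-KO replicate 2 lay between the WT libraries, and replicates of one group differed by 1.29-fold in WT and 1.25-fold in DDI2-KO, about as much as the group means did (1.24-fold). The log2 fold change of Clec4f was 0.32 (standard error, SE, 0.20, 95% interval -0.15 to 0.78, adjusted p = 0.380 in edgeR). It was 0.14 without WT replicate 2, 0.51 without WT replicate 1, 0.15 without DDI2-KO replicate 1 and 0.48 without DDI2-KO replicate 2.

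Vsig4 (ENSMUSG00000044206, chromosome X, 96247203 to 96293438, minus strand) encodes a receptor for complement fragments on particles that Kupffer cells ingest. It had 3037 and 2068 reads in WT, against 2403 and 2104 in DDI2-KO, or 90.3 and 66.9 CPM against 92.8 and 91.6 CPM. The DDI2-KO libraries were nearly equal and just above WT replicate 1, and the distance between the groups came from WT replicate 2. Without that library the log2 fold change was 0.029, and without WT replicate 1 it was 0.46, against 0.23 with all libraries (SE 0.19, 95% interval -0.20 to 0.66, adjusted p = 0.503 in edgeR).

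Timd4 (ENSMUSG00000055546, chromosome 11, 46810800 to 46844332, plus strand) encodes a receptor for phosphatidylserine on dying cells and marks Kupffer cells of long residence. It had 757 and 569 reads in WT, against 549 and 471 in DDI2-KO. Its mean CPM was the lowest of the 10 in each group, though Cd68 had fewer reads (468) in DDI2-KO replicate 2. Both DDI2-KO libraries (21.2 and 20.5 CPM) lay between the WT libraries (22.5 and 18.4 CPM). The log2 fold change of 0.03 (SE 0.17, adjusted p = 0.944 in edgeR) had a 95% interval of -0.37 to 0.43, which spans 0.772-fold to 1.35-fold, and its sign turned with upper-quartile scaling (-0.026), with offsets for GC content and length (-0.049) and without WT replicate 2 (-0.11).

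Cd5l and Marco are scavenger proteins of resident macrophages, and they pointed in opposite directions. Cd5l (ENSMUSG00000015854, chromosome 3, 87357881 to 87371073, plus strand) encodes a secreted protein, also known as apoptosis inhibitor of macrophages, that circulates in blood. It had 7369 and 6368 reads in WT, against 7755 and 5655 in DDI2-KO, or 219 and 206 CPM against 300 and 246 CPM. Both DDI2-KO libraries were above WT, with means of 213 ± 9.24 CPM for WT (SD, n = 2) and 273 ± 37.9 CPM for DDI2-KO (SD, n = 2). For Cd5l the log2 fold change came to 0.36 (SE 0.18, 95% interval -0.05 to 0.77, adjusted p = 0.268 in edgeR), and it was 0.21 without DDI2-KO replicate 1.

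Marco (ENSMUSG00000026390, chromosome 1, 120474538 to 120505024, minus strand) encodes a surface receptor that binds bacteria and particles. It had 1091 and 1088 reads in WT, against 765 and 558 in DDI2-KO, or 32.4 and 35.2 CPM against 29.6 and 24.3 CPM. Both DDI2-KO libraries lay below WT, and the gap between the nearest libraries, 29.6 and 32.4 CPM, was smaller than that between the DDI2-KO libraries. Marco had a fitted log2 fold change of -0.33 (SE 0.17, 95% interval -0.72 to 0.06, adjusted p = 0.283 in edgeR), which was -0.19 without DDI2-KO replicate 2.

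Adgre1, Csf1r and Cd68 mark macrophages in most tissues. Adgre1 (ENSMUSG00000004730, chromosome 17, 57358691 to 57483527, plus strand) encodes F4/80, the surface antigen by which mouse macrophages are usually stained. It had 1372 and 1205 reads in WT, against 1538 and 1382 in DDI2-KO, or 40.8 and 39.0 CPM against 59.4 and 60.1 CPM. Replicates agreed closely in each group, and the DDI2-KO mean was 1.50-fold that of WT (95% interval 1.18 to 1.90). The log2 fold change of 0.58 (SE 0.15) had in edgeR an unadjusted p of 0.00425, or an adjusted p of 0.0744. This was the lowest adjusted p among the 10 markers, and it ranged from 0.0264 to 0.333 over 16 alternatives.

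Csf1r (ENSMUSG00000024621, chromosome 18, 61100598 to 61132149, plus strand) encodes the receptor for CSF1 and IL-34, on which macrophage survival depends. It had 3697 and 2912 reads in WT, against 3314 and 2472 in DDI2-KO. The groups overlapped, since DDI2-KO replicate 2 (108 CPM) lay just under WT replicate 1 (110 CPM), with 94.3 CPM in WT replicate 2 and 128 CPM in DDI2-KO replicate 1. For Csf1r the fitted value was 0.21 on the log2 scale (SE 0.18, 95% interval -0.20 to 0.61, adjusted p = 0.526 in edgeR). It was 0.079 without DDI2-KO replicate 1, 0.099 without WT replicate 2, 0.32 without WT replicate 1 and 0.34 without DDI2-KO replicate 2. Exons of Hmgxb3, on the opposite strand, overlap 15.1% of the Csf1r exon bases, so a part of this count is uncertain; no exon overlap was found for the other 9 markers.

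Cd68 (ENSMUSG00000018774, chromosome 11, 69664213 to 69666153, minus strand) encodes a glycoprotein of the lysosome, the compartment that breaks down ingested material. It had 1323 and 863 reads in WT, against 605 and 468 in DDI2-KO, or 39.4 and 27.9 CPM against 23.4 and 20.4 CPM. Both DDI2-KO libraries lay below WT, whose libraries differed from each other by 1.41-fold, and the DDI2-KO mean was 0.650 of the WT mean. The log2 fold change of -0.62 (SE 0.20, 95% interval -1.09 to -0.15) had in edgeR an unadjusted p of 0.0154, or an adjusted p of 0.123. It was -0.35 without WT replicate 1, the highest library.

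C1qa and C1qb encode chains of C1q, the recognition part of the classical complement pathway, which macrophages make in most tissues. With Cd68, they had the lowest log2 fold changes of the 10 markers. C1qa (ENSMUSG00000036887, chromosome 4, 136895917 to 136898803, minus strand) had 3334 and 2612 reads in WT, against 1838 and 932 in DDI2-KO, or 99.2 and 84.5 CPM against 71.0 and 40.6 CPM. Both DDI2-KO libraries lay below WT, and they differed from each other by 1.75-fold, the widest replicate difference among the 10 markers. The log2 fold change of -0.72 (SE 0.26, 95% interval -1.33 to -0.10) had in edgeR an unadjusted p of 0.0274, or an adjusted p of 0.161. Its size depended on the DDI2-KO library: without DDI2-KO replicate 2 it was -0.36 (adjusted p = 0.279), and without DDI2-KO replicate 1 it was -1.18 (adjusted p = 0.0371).

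C1qb (ENSMUSG00000036905, chromosome 4, 136880129 to 136886187, minus strand) had 4148 and 3023 reads in WT, against 2307 and 1513 in DDI2-KO, or 123 and 97.8 CPM against 89.1 and 65.8 CPM. As for C1qa, DDI2-KO replicate 2 was the lowest library. C1qb had a fitted log2 fold change of -0.51 (SE 0.21, 95% interval -0.99 to -0.04, unadjusted p of 0.0370, adjusted p = 0.186 in edgeR), and it was -0.30 without DDI2-KO replicate 2 and -0.33 without WT replicate 1. C1qc, the third chain, named after its values were seen, had 2376 and 1884 reads in WT, against 1578 and 908 in DDI2-KO. Its DDI2-KO replicate 1 and WT replicate 2 were both at 61.0 CPM, and its log2 fold change was -0.39 (SE 0.22, adjusted p = 0.325 in edgeR).

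The share of each chain differed less between the libraries than its level did. Of the summed CPM of the 3 chains, C1qa made up 33.8 and 34.7% in WT and 32.1 and 27.8% in DDI2-KO. C1qb made up 42.1 and 40.2% in WT and 40.3 and 45.1% in DDI2-KO, and C1qc 24.1 and 25.1% in WT and 27.6 and 27.1% in DDI2-KO. The C1qa share of the lowest library, DDI2-KO replicate 2, stood apart from the others. The 3 genes lie within 18.7 kb of chromosome 4, which also carries Ddi2, 4.78 Mb away. Both groups carry the floxed Ddi2 alleles, and the part of this position in the values was not tested.

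**Figure D2:**
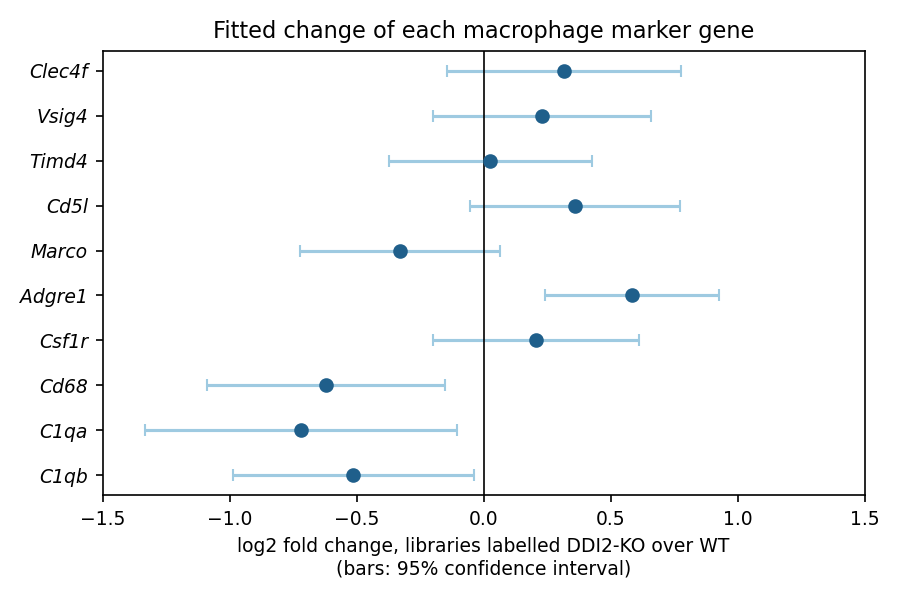
Log2 fold change of each marker (DDI2-KO against WT, horizontal axis), with points for edgeR's estimate and bars for its 95% interval. Values run from -0.72 for C1qa to 0.58 for Adgre1, and the intervals of Adgre1, Cd68, C1qa and C1qb leave out 0 before adjustment for the number of genes tested.

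Read together, the markers did not separate the groups. Their median log2 fold change was 0.12, against -0.015 over all genes tested, with 6 values positive and 4 negative. Summed over the 10 genes, the CPM were 952 and 806 in WT and 1029 and 849 in DDI2-KO. The groups overlapped, with means of 879 ± 103 (SD, n = 2) and 939 ± 127 (SD, n = 2), a ratio of 1.07. With each library left out in turn this ratio ran from 0.968 to 1.18, so its side of 1 was not settled. The sum leans on the abundant genes, since Cd5l and Clec4f together made up 41.4 and 42.4% of it in WT and 49.3% or more in DDI2-KO.

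The make-up of the sum differed more than the sum. C1qa contributed 10.4 and 10.5% of it in WT and 6.90 and 4.77% in DDI2-KO, and C1qb 12.95 and 12.1% against 8.66 and 7.75%. Cd5l contributed 23.0 and 25.6% in WT and 29.1 and 29.0% in DDI2-KO. The complement genes thus held a smaller share in both DDI2-KO libraries and Cd5l a larger one, and the shares of one library are tied to each other, since they add to a fixed total.

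A ratio of the reads of 2 genes in 1 library does not depend on library size or on scaling, and Clec4f, the most restricted to Kupffer cells, was used as the denominator. For each Clec4f read, C1qb had 0.704 and 0.719 reads in WT, against 0.414 and 0.382 in DDI2-KO. C1qa had 0.566 and 0.621 against 0.330 and 0.235, and Cd68 had 0.224 and 0.205 against 0.109 and 0.118. For these genes the DDI2-KO ratios were 0.559, 0.476 and 0.528 of the WT ratios on average, with the libraries of each group closer together than the groups. Marco had 0.185 and 0.259 against 0.137 and 0.141, or 0.627 of WT. The DDI2-KO mean of Clec4f was itself 1.24-fold that of WT, with overlapping groups, which lowers every ratio. By CPM, the DDI2-KO means were 0.701 of WT for C1qb, 0.607 for C1qa, 0.650 for Cd68 and 0.796 for Marco.

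The ratios of the remaining markers to Clec4f were closer to those of WT. Cd5l had 1.25 and 1.52 reads for each Clec4f read in WT and 1.39 and 1.43 in DDI2-KO, and Vsig4 had 0.515 and 0.492 against 0.432 and 0.531. Both overlapped between the groups, as did Adgre1 (0.233 and 0.287 against 0.276 and 0.349). Timd4 (0.128 and 0.135 against 0.0986 and 0.119) and Csf1r (0.627 and 0.693 against 0.595 and 0.624) lay lower in both DDI2-KO libraries, Csf1r by little. By CPM the groups overlapped for both of these genes. These ratios share 1 denominator and are given as a description, with no test. How many of all genes tested had lower ratios to Clec4f in both DDI2-KO libraries was not counted.

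**Figure D3:**
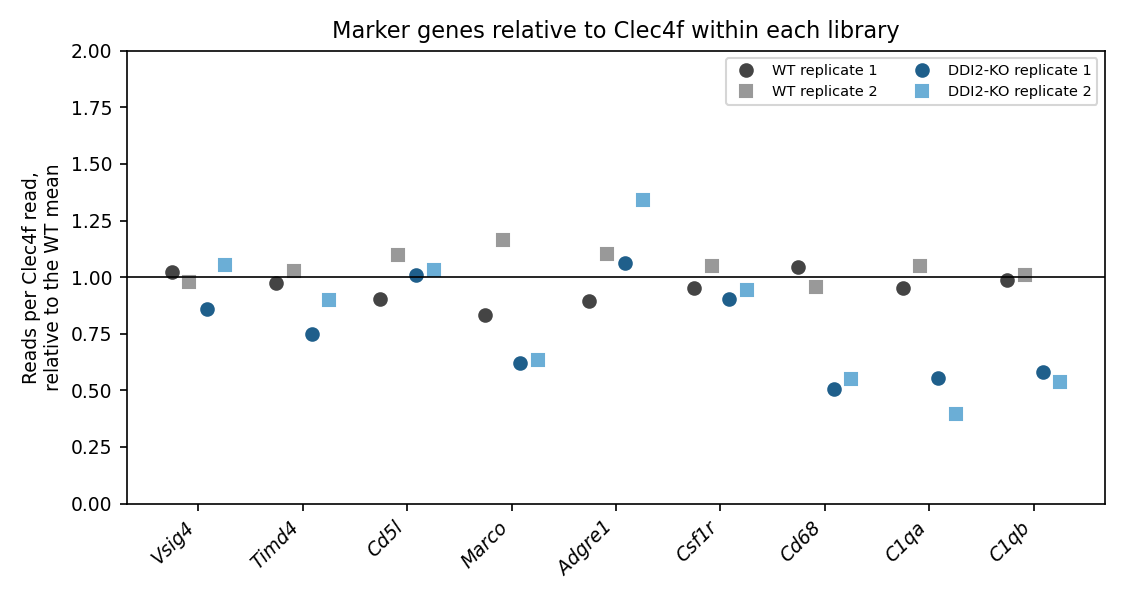
Reads of each marker for each Clec4f read in the same library, divided by the mean of the WT libraries (vertical axis), with 1 point per library and a line at 1. C1qa, C1qb, Cd68, Marco, Timd4 and Csf1r have lower ratios in both DDI2-KO libraries than in WT, whereas those of Vsig4, Cd5l and Adgre1 overlap. The ratios of Timd4 and Csf1r lie closer to WT than the others that are lower.

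Levels of different genes were compared per length of annotated exon, as TPM, which sum to the same total in each library. In WT, Cd5l (243 ± 11.6 TPM, SD, n = 2), C1qb (237 ± 39.6) and C1qa (205 ± 24.0) were the highest, and their libraries overlapped in this order. Clec4f (147 ± 26.7) and Vsig4 (123 ± 26.4) came next and overlapped each other. Cd68 (62.3 ± 15.2), Csf1r (41.1 ± 4.65), Marco (40.9 ± 2.19), Adgre1 (28.7 ± 1.04) and Timd4 (21.9 ± 3.19) followed, of which Csf1r and Marco overlapped.

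In DDI2-KO, Cd5l stood clear of the rest at 338 ± 45.2 TPM (SD, n = 2). Clec4f (198 ± 29.7), C1qb (180 ± 37.3), Vsig4 (157 ± 0.742) and C1qa (135 ± 51.6) followed, each overlapping the next of these in the order. Csf1r (51.5 ± 6.07), Adgre1 (46.6 ± 0.634), Cd68 (43.9 ± 4.05), Marco (35.3 ± 4.71) and Timd4 (24.2 ± 0.464) made up the lower end, and of these Adgre1 and Cd68 overlapped. Timd4 was thus the lowest in both groups and Cd5l the highest, while C1qa had rank 3 in WT and rank 5 in DDI2-KO, Cd68 rank 6 and rank 8, and Adgre1 rank 9 and rank 7.

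Transcript length and GC content, which had no part in the choice of the markers, differed with the direction, although the ranges overlap. The 4 with negative log2 fold changes have longest transcripts of 1040 to 1925 bases with 52.9 to 59.5% GC, and the 6 with positive values have 1432 to 4701 bases with 44.4 to 54.5% GC. Across 13675 genes (genes are no independent replicates), Spearman's rho of the log2 fold change was -0.12 against transcript length and 0.049 against GC content. Genes within 20% of the length of each marker had median log2 fold changes between -0.033 and 0.075. These genes were matched on length only and not on GC content. The DDI2-KO libraries differed from each other by GC content: over the same genes, rho of the difference between DDI2-KO replicates 2 and 1 (log2 of CPM + 0.5) was -0.49 against GC, and that between the WT replicates 0.070. C1qa and C1qb, with the highest GC content of the markers (59.5 and 57.4%), were also those that differed most between the DDI2-KO libraries (1.75-fold and 1.35-fold). Timd4, Vsig4 and Adgre1, with the lowest GC content (44.4 to 47.2%), differed by 1.01-fold to 1.03-fold there. With offsets for GC content and length in edgeR, the log2 fold change was -0.58 for C1qa (adjusted p = 0.0828), -0.74 for Cd68 (adjusted p = 0.0581), -0.45 for C1qb (adjusted p = 0.128) and 0.45 for Adgre1 (adjusted p = 0.0745).

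Over the 4 libraries, the median of the markers, each centred on its own mean log2 CPM, was 0.0998 and -0.185 in WT and 0.0864 and -0.015 in DDI2-KO. The difference between the WT libraries thus exceeded that between the groups. Among 7370 other genes whose mean CPM was 10 or more, the 5 with the pattern most similar to this median were Mrtfb, Slc43a3, Nod1, Lrrc3 and Specc1l, with root mean square differences of 0.0080 to 0.021 on the log2 scale. The markers themselves differed from it by 0.030 (Timd4) to 0.489 (C1qa), so these genes resemble the median and not each marker. With only 4 libraries, such a likeness is a description of these libraries.

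Of 14 other genes known from Kupffer cells, 1 was higher in DDI2-KO and 0 lower at an adjusted p under 0.05 in edgeR's test. At an unadjusted p under 0.05, 4 were higher and 3 lower. Over all genes tested, 1.33% were higher and 1.20% lower at the adjusted threshold, and 12.0% and 11.5% at the unadjusted one. The same shares stand beside the counts of each list below. The gene past the threshold was Id3, which encodes a transcriptional regulator required for Kupffer cell identity but made in other liver cells as well. Like the C1q genes and Ddi2, Id3 lies on chromosome 4 (136143497 to 136145755). Id3 had 701 and 638 reads in WT, against 1710 and 1005 in DDI2-KO, or 20.8 and 20.6 CPM against 66.1 and 43.7 CPM. Both DDI2-KO libraries were above WT. On the log2 scale the difference was 1.40 (SE 0.21, adjusted p = 0.0289 in edgeR), and without WT replicate 1 the adjusted p was 0.0680.

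The other Kupffer cell genes of high level did not pass the threshold. Slc40a1, which encodes the iron exporter ferroportin, had 218 and 228 CPM in WT and 239 and 348 CPM in DDI2-KO (log2 fold change 0.40, SE 0.21, adjusted p = 0.298 in edgeR). Fcna, which encodes the lectin ficolin A, had 79.9 and 46.8 CPM against 105 and 88.8 CPM (0.62, SE 0.26, adjusted p = 0.202 in edgeR). C6, a component of the terminal complement complex that hepatocytes make too, had 38.0 and 43.9 CPM against 55.8 and 59.5 CPM (0.49, SE 0.16, adjusted p = 0.118 in edgeR). Each of the 3 had both DDI2-KO libraries above WT, as had 28.0% of all genes tested, while 27.7% had both below. Folr2, also higher at an unadjusted p under 0.05, was named after its values were seen. It had 28.3 and 20.5 CPM in WT and 35.7 and 32.5 CPM in DDI2-KO (0.48, SE 0.19, adjusted p = 0.186 in edgeR). Exons of a gene on the opposite strand overlap 63.1% of the Folr2 exon bases, so this count is uncertain. In the opposite direction, with both DDI2-KO libraries below WT, were the 3 genes of the list that were lower at an unadjusted p under 0.05, named after their values were seen. Kcna2, a potassium channel gene, had 12.1 and 8.19 CPM in WT and 4.52 and 5.79 CPM in DDI2-KO (-0.98, SE 0.26, adjusted p = 0.0787 in edgeR). Zeb2, which encodes a transcription factor that maintains macrophage identity, had 26.6 and 28.0 CPM against 14.9 and 19.7 CPM (-0.66, SE 0.19, adjusted p = 0.0913 in edgeR). Spic, which encodes a transcription factor of iron-recycling macrophages, had 5.83 and 5.15 CPM against 2.63 and 3.87 CPM (-0.76, SE 0.27, adjusted p = 0.144 in edgeR). Nr1h3, which encodes the liver X receptor alpha, overlapped at 74.6 and 77.3 CPM in WT and 92.3 and 65.0 CPM in DDI2-KO. The median log2 fold change of the 14 genes was 0.024, and their summed CPM, 664 and 611 in WT against 760 and 805 in DDI2-KO, did not overlap, with Slc40a1 as the largest contributor.

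Of 20 genes of macrophages and myeloid cells in general, 0 were called in either direction by edgeR's test and by DESeq2, with 0 higher and 3 lower at an unadjusted p under 0.05 in edgeR's test. Their median log2 fold change was -0.073, and their summed CPM overlapped at 1044 and 890 in WT and 966 and 893 in DDI2-KO. Cd74, the invariant chain of antigen presentation, had 162 and 141 CPM in WT and 118 and 80.5 CPM in DDI2-KO (log2 fold change -0.61, SE 0.21, adjusted p = 0.140 in edgeR). Lyz2, which encodes lysozyme, had 170 and 120 CPM against 178 and 221 CPM (0.45, SE 0.22, adjusted p = 0.250 in edgeR). The pore-forming Mpeg1 (138 and 121 CPM against 141 and 123 CPM) and the lysosomal protease Lgmn (123 and 117 CPM against 125 and 118 CPM) overlapped. As among the 10 markers, members of this list lay on both sides of WT.

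Genes of incoming myeloid cells were at low levels. Of 11 monocyte and neutrophil genes, 10 were tested, the exception being Chil3, and 0 were called by edgeR's test, with 1 higher at an unadjusted p under 0.05. Their summed CPM were 23.0 and 29.1 in WT and 31.2 and 29.8 in DDI2-KO. Plac8, the most abundant of them, had 8.12 and 10.6 CPM against 16.7 and 15.1 CPM (log2 fold change 0.77, SE 0.20, adjusted p = 0.0777 in edgeR), and Csf3r, the receptor of granulocyte colony-stimulating factor, 5.47 and 4.63 CPM against 4.06 and 3.74 CPM (-0.37, SE 0.23, adjusted p = 0.375).

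Of 7 genes of lipid-associated macrophages, 0 were called by edgeR's test, with 2 higher and 1 lower at an unadjusted p under 0.05. The sum of this list, 231 and 408 CPM in WT and 564 and 469 CPM in DDI2-KO, had Fabp5, a fatty acid carrier found in several cell types, as its largest contributor, at 114 and 205 CPM against 453 and 342 CPM (log2 fold change 1.32, SE 0.30, adjusted p = 0.0641 in edgeR). Lpl, which encodes lipoprotein lipase, ranged over 35.5 and 139 CPM within WT alone, against 27.8 and 40.1 CPM in DDI2-KO. DESeq2 called Fabp5 higher, and Plac8 of the monocyte list. The median of the list was negative, -0.25, whereas its sum was higher in DDI2-KO.

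**Figure D4:**
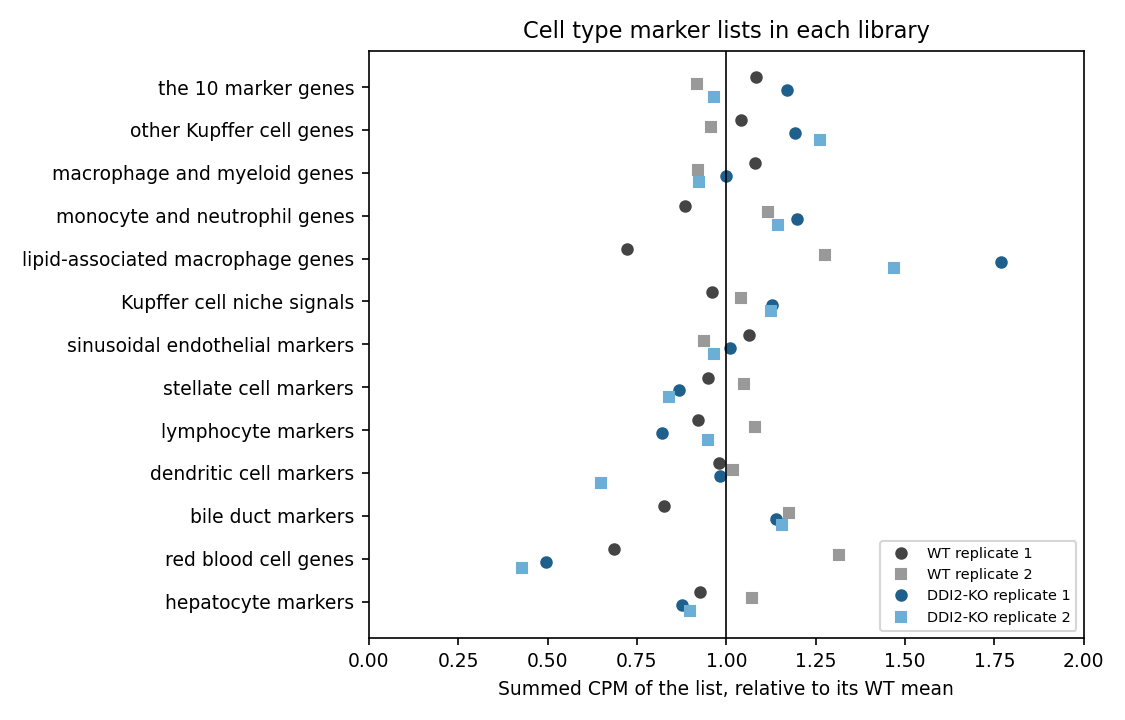
Summed TMM-scaled CPM of the 10 markers and of the 12 other lists in each library, divided by the WT mean of the list (horizontal axis), with 1 point per library and a line at 1. The DDI2-KO points average 1.07 for the markers, 0.962 for the general macrophage list, 1.62 for the lipid-associated list, which lies farthest right, and 0.462 for the red blood cell list, farthest left.

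The signals that keep Kupffer cells in place were measured through 8 genes, of which 0 were called by edgeR's test, with 1 higher at an unadjusted p under 0.05. Csf1, the growth factor that Csf1r binds, had 17.3 and 18.7 CPM in WT and 17.1 and 19.1 CPM in DDI2-KO, so the groups overlapped. Gdf2, which encodes the ligand BMP9 made by stellate cells, had 24.4 and 27.9 CPM against 39.2 and 35.2 CPM (log2 fold change 0.51, SE 0.16, adjusted p = 0.120 in edgeR). The summed CPM of these genes were 75.1 and 81.5 in WT and 88.4 and 88.1 in DDI2-KO, with Gdf2 as the largest contributor. Both DDI2-KO libraries lay above both WT libraries for 1 of the 8 genes, Gdf2 (28.0% of all genes). They lay below for 2 (27.7%), and the groups overlapped for 5.

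Markers of the neighbouring cells were counted because whole liver holds them as well. Of 10 sinusoidal endothelial genes, 1 was lower in DDI2-KO in edgeR's test and 0 higher. This was Stab2, a receptor that clears hyaluronan, with 2479 and 1890 reads in WT, against 852 and 688 in DDI2-KO. Its log2 fold change was -1.10 (SE 0.17, adjusted p = 0.0288 in edgeR, and 0.109 without WT replicate 1). The endothelial sum overlapped, at 736 and 649 CPM in WT and 700 and 670 CPM in DDI2-KO. Both DDI2-KO libraries lay above both WT libraries for 4 of the 10 genes (28.0% of all genes) and below for 4 (27.7%). The most abundant of them were among those above. Fcgr2b had 122 and 109 CPM in WT and 124 and 125 CPM in DDI2-KO (log2 fold change 0.11, adjusted p = 0.729 in edgeR). Dnase1l3 had 123 and 83.0 CPM against 124 and 125 CPM (0.28, adjusted p = 0.468 in edgeR). The 10 stellate cell genes had 0 calls, with 0 higher and 3 lower at an unadjusted p under 0.05, and a sum that was lower in DDI2-KO, 767 and 849 CPM against 700 and 679 CPM.

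The red blood cell genes had lower sums in both DDI2-KO libraries, at 109 and 210 CPM in WT and 79.3 and 68.3 CPM in DDI2-KO. At an unadjusted p under 0.05 in edgeR's test, 4 of the 5 were lower (11.5% of all genes). Of the 5, 1 passed the adjusted threshold, Hba-a1, an alpha-globin gene, with 862 and 1471 reads in WT, against 266 and 203 in DDI2-KO (log2 fold change -1.94, SE 0.30, adjusted p = 0.0338 in edgeR). Its adjusted p was 0.196 and 0.213 without DDI2-KO replicates 1 and 2, and it shares sequence with the near-identical Hba-a2, so the split of reads between them is uncertain. Blood in the tissue also carries leukocytes, and the part of blood content in the marker values was not tested.

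The remaining lists had 0 calls in edgeR's test. Lymphocyte genes (10 tested, 1 higher and 0 lower at an unadjusted p under 0.05) summed to 13.1 and 15.4 CPM in WT and 11.7 and 13.5 CPM in DDI2-KO, and bile duct genes (5 tested, 0 in either direction) to 4.82 and 6.86 CPM against 6.65 and 6.74 CPM. Both lists overlapped between the groups. Dendritic cell genes (8 tested, 0 higher and 2 lower) summed to 146 and 152 CPM against 147 and 97.0 CPM, with DDI2-KO replicate 2 as the low library, as it was for C1qa and C1qb. Its H2-Ab1, a chain of the class II molecules that macrophages carry as well, had 44.7 and 47.4 CPM in WT and 34.3 and 20.1 CPM in DDI2-KO (log2 fold change -0.76, SE 0.25, adjusted p = 0.126 in edgeR). Clec9a, the other gene of the list lower at an unadjusted p under 0.05, was named after its values were seen. It had 2.77 and 3.20 CPM in WT and 0.966 and 1.48 CPM in DDI2-KO (-1.29, SE 0.34, adjusted p = 0.0764 in edgeR). The groups overlapped for 5 of the 8 dendritic cell genes. Among these was the most abundant, the class II gene H2-Aa, with 66.2 and 65.6 CPM against 73.6 and 48.9 CPM (-0.11, SE 0.21, adjusted p = 0.797 in edgeR). Hepatocyte genes (8 tested, 1 higher and 0 lower) summed to 162072 and 187563 CPM against 153208 and 156897 CPM, which reflects mostly Alb. No gene of the lists was at 0 in every library. Over all 12 lists, limma-voom and limma-trend called Id3 higher and Hba-a1 and Stab2 lower, as edgeR did, and DESeq2 called Id3, Fabp5 and Plac8 higher and Hba-a1, Hba-a2, Hbb-bs, Kcna2 and Stab2 lower.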

How the data were processed

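Total liver RNA was sequenced as stranded mRNA libraries, 2 per genotype. The authors deposited raw read counts per Ensembl gene, without normalization. The submitters' processing notes name cutadapt 1.8, STAR 2.5.2b, HTSeq 0.6.1 and GRCm38, while the strand setting and annotation release are not given in the sources used here. The summary lines of the counting program were not used as genes. In them, reads assigned to no gene came to 2.53 to 5.11% and reads that map to several places to 47.3 to 65.8% of the reads on genes, so counts of genes with near copies are uncertain. Symbols, coordinates and lengths came from GENCODE M21, which holds 48349 of the 48709 identifiers, and sequences from RefSeq.

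Counts were fitted over all genes with edgeR 4.0.16 in R 4.3.3 (TMM, filterByExpr, glmQLFit with robust estimation, glmQLFTest, no replicate block), and p-values were adjusted by Benjamini-Hochberg. Standard errors are the log2 fold change divided by the square root of F. The study used limma's moderated test, and limma 3.58.1 and DESeq2 1.42.0 were run as alternatives, as were other scalings and filters, no robust estimation, offsets for GC content and length (lowess span 0.3), a replicate block, another threshold and leaving out each library. The tests were tested on simulated data. Sampling noise did not account for the difference between libraries of one group (chi-square divided by its degrees of freedom, 48.5 in WT and 26.3 in DDI2-KO), and each library entered as its own sample.

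The markers and the 12 other lists (116 genes) were chosen with earlier results of these data known. The genes named are all 10 markers and Ddi2, genes of the lists past an adjusted p of 0.05, the 4 most abundant of the Kupffer cell and general macrophage lists and the 2 most abundant of the others, and the 5 with the most similar pattern, not all of them described. C1qc, Hba-a2, Hbb-bs, Kcna2, Zeb2, Spic, Folr2, Clec9a and Chil3 were named after their values were seen. Cadmium-treated mice were not analysed here.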

Additional observations from a re-analysis of the deposited data

How the results depend on the processing

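Precision is limited by the 2 mice per genotype rather than by sequencing depth. The count of markers called higher, 0 as reported, was 1 (Adgre1) at an adjusted p under 0.10, with no filter on low counts and with DESeq2. The count called lower, 0 as reported, was 1 without the filter (Cd68) and 0 to 1 with each library left out in turn (C1qa). The remaining alternatives kept both counts at 0, other than the replicate block. The median log2 fold change of the markers was -0.041 to 0.25 with each library left out and 0.054 to 0.16 otherwise, and the ratio of summed CPM was 1.03 to 1.10 under other scalings. Offsets give no summed level, so that ratio was not run with them. Timd4 turned sign with upper-quartile factors (-0.026), with offsets for GC content and length (-0.049) and without WT replicate 2 (range -0.11 to 0.18); the cause was not tested. Alas2, of the red blood cell list, turned sign without WT replicate 2 (range -0.73 to 0.17). In the 12 lists, 1 gene was higher and 2 lower as reported, against 3 higher and 5 lower with DESeq2, 4 lower with the offsets, and 0 to 2 higher and 2 to 5 lower with each library left out. Over all genes tested, 182 were higher and 164 lower, against 511 and 429 with DESeq2. The counts were 72 and 64 with limma-voom and 74 and 65 with limma-trend. They were 792 and 752 of 21099 genes without the filter, 75 and 77 without robust estimation and 469 and 363 with the offsets. Upper-quartile factors moved the share of higher calls from 52.6% to 39.7%, leaving out WT replicate 2 moved it to 37.4%, and library totals alone moved it the other way, to 60.8% (230 higher and 148 lower).

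Same-numbered libraries did not deviate together (correlation 0.059 over 13699 genes), and the labels do not state a pairing. With the replicate number as a block, 1 marker was called lower (C1qa, log2 fold change -0.77, adjusted p = 0.0261 from edgeR), 0 were called higher, 4 list genes were higher and 9 lower, and 553 genes in all were higher and 555 lower.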
